A study of Heterocephalus glaber with 3 samples.

Results

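The cells described here are neutrophil-type cells of naked mole-rat (Heterocephalus glaber) lung tumours, 57 of the 25044 cells that passed the quality limits. A cell was taken as neutrophil-type where CSF3R, CXCR2 and FPR1 together gave at least 3 UMIs (unique molecular identifiers, 1 per captured RNA molecule) and at least 20 UMIs per 10000 of the cell, with 2 or more of these genes seen. It also had to have no UMI of the macrophage genes MRC1, MSR1 and GPNMB, no UMI of the T cell genes CD3D, CD3E and CD3G, and under 4 RETN UMIs per 10000. The gate lists 6 neutrophil genes, of which 3 are named in the feature list. S100A8, S100A9 and G0S2 carry no symbol there and were not analysed here. The cells were chosen by these values, so the levels of the gate genes are a description and were not tested.

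All cells come from 1 group of 3 animals, replicates 1 to 3, with 1 library per animal. Each animal had received an adenovirus with CRISPR reagents, and the labels list loss of Rb and an Eml4-Alk inversion among the edits. A further edit that the labels give for all 3 animals is not reported here. Tumours were cut from the lungs by hand 15 weeks after infection and profiled with the 10x Genomics 3' assay. The labels name no untreated animal and give no age, so each comparison sets cell classes of 1 animal against each other. The labels also do not say whether cells outside the tumour cell lineage carry the edits.

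Neutrophils are short-lived granulocytes made in the bone marrow. CSF3R is the receptor for G-CSF, which drives their production, CXCR2 is the receptor for the chemokines that call them into tissue, and FPR1 senses formylated peptides from bacteria and damaged mitochondria. They carry little RNA, kill microbes with granule proteins and with oxidants from the NADPH oxidase, and in tumours of mice and humans they have been described both as attacking tumour cells and as supporting their growth.

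The cells came from 2 of the 3 animals. Replicate 1 had 24 among 8078 passing cells (0.297%, exact binomial 95% interval 0.190 to 0.442%) and replicate 2 had 33 among 9015 (0.366%, 0.252 to 0.514%). Replicate 3 had 0 among 7951, with an upper 95% limit of 0.0464%, and a floor of 3 counts stands at 0.0377%. All intervals and floors in this text cover counting error only. The 3 libraries shared 24, 21 and 31 barcodes in pairs, and none of these (0) belonged to a neutrophil-gate cell.

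Depth moved with this difference between animals. The neutrophil-gate cells had a median of 1440 UMIs (1311 to 2028) in replicate 1 and 1361 UMIs (1153 to 4559) in replicate 2, against medians of 5058 and 5230 UMIs in all other passing cells. The lowest barcode totals in the files were 1298, 1150 and 2174 UMIs for replicates 1, 2 and 3. Of the 57 cells, 55 had fewer UMIs than the shallowest barcode of replicate 3. Below 2174 UMIs the share was 24 of 1974 cells (1.22%) in replicate 1 and 31 of 2234 (1.39%) in replicate 2. At or above 2174 UMIs it was 0 of 6104, 2 of 6781 (0.0295%) and 0 of 7951 cells in replicates 1, 2 and 3. The cells thus sit just above the deposit minimum of their libraries, and a lower share in replicate 3 cannot be told apart from its higher minimum.

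**Figure D1:**
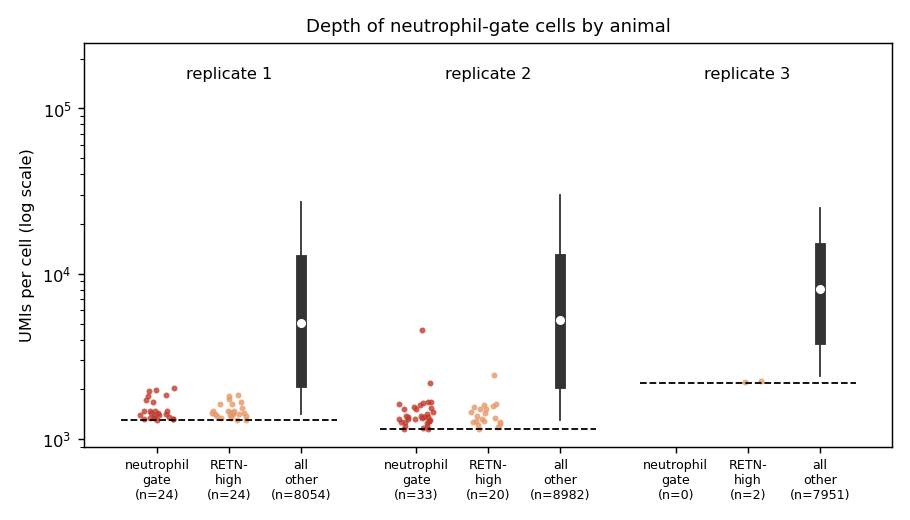
UMIs per cell on a log scale for neutrophil-gate cells (red points), RETN-high cells of the same gate (orange points) and all other passing cells (dark bars, 25th to 75th percentile, thin lines 5th to 95th, white dot the median) in each animal; the dashed line is the lowest barcode total of the library. Nearly all red points lie below 2174 UMIs, the dashed line of replicate 3, where no neutrophil-gate cell (0) was found.

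Each limit of the gate turned on a few UMIs. Of the 57 cells, 27 held CSF3R with FPR1, 12 CSF3R with CXCR2, 11 CXCR2 with FPR1, and 7 held all 3 genes. Just inside the limit, 20 cells had 20 to 25 gate UMIs per 10000. Just outside it, 22 cells had 15 to 20 and met the other limits, except that the minimum of 3 UMIs was not applied to them. CSF3R stood at 843 and 1146 CPM (UMIs per 1000000 of the class) in the neutrophil-gate cells of replicates 1 and 2, CXCR2 at 571 and 563 CPM, and FPR1 at 1306 and 1407 CPM. At the median depth 1 UMI is worth 7.19 per 10000, so the RETN limit amounts to having no RETN UMI, and none of the 57 cells (0) had one. The RETN limit set aside 46 further cells, 24, 20 and 2 in replicates 1, 2 and 3, which are called RETN-high below.

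The neutrophil label was checked against markers that the gate did not use. For tests, UMIs were summed per animal and class, and neutrophil-gate cells were compared with all other passing cells and with mononuclear phagocytes of the same animal in edgeR. The phagocytes were cells with at least 3 UMIs and 20 per 10000 of CSF1R, C1QA, C1QB, C1QC, MRC1, MSR1 and GPNMB, 1287 and 1314 cells in replicates 1 and 2. They also had 2 or more of these genes seen, no UMI of CD3D, CD3E or CD3G, and CSF3R, CXCR2 and FPR1 together under 20 per 10000. Against all other cells 925 of 14085 genes passed an adjusted p of 0.05 (6.57%), of which 250 were higher (1.77%) and 675 lower (4.79%) in neutrophil-gate cells. Against phagocytes 771 of 10241 genes passed (7.53%), with 210 higher (2.05%) and 561 lower (5.48%). With only 2 animals the fit has 1 residual degree of freedom and shares 1 estimate of spread over all genes, so its p-values rest mostly on counting precision. Genes that vary with the gate genes enter the cells with them, so these p-values are not calibrated. The limit on the same gate genes in phagocytes adds to this on the phagocyte side, so part of such differences is set by the choice of cells. Every change given below is a fitted log2 fold change ± SE (n = 2 animals) unless said otherwise. Fitted changes include a scaling shift of -0.51 (log2) against all other cells and of -0.37 against phagocytes.

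Of the 9 named neutrophil markers outside the gate, 4 were higher in neutrophil-gate cells than in all other cells, CXCR1 and PADI4 among them, 1 was lower (MMP9), and 4 did not pass. Summed, the 9 markers gave 2366 and 1447 CPM in neutrophil-gate cells of replicates 1 and 2, against 513 and 773 CPM in phagocytes and 329 and 759 CPM in all other cells. MMP8, a collagenase of secondary granules, gave 0 and 3 UMIs and CEBPE, a factor of granulocyte precursors, 0 UMIs in the 57 cells. Markers of other lineages were at or near 0 for several types. All 6 named dendritic cell markers gave 0 UMIs in both animals, as did the endothelial (3), eosinophil (2) and erythroid (1) markers. At a floor of 3 counts these 0 values allow up to 81.6 and 60.3 CPM. In all other cells the endothelial, eosinophil and erythroid sums were at most 20.4 CPM, under these floors. Their 0 counts thus do not separate the class from other cells. The dendritic sum was 93.9 and 97.2 CPM in all other cells. The 8 macrophage markers outside the gate summed to 4434 and 2171 CPM in neutrophil-gate cells, against 6322 and 6762 CPM in phagocytes, and in replicate 1 FCN1 alone gave 71 of these 163 UMIs. CSF1R, C1QA, C1QB and C1QC are among the 8 and also helped to choose the phagocytes. The higher sum in phagocytes is thus partly set by that choice. IGKC, the immunoglobulin light chain of plasma cells, was seen in all 57 cells with 3 to 20 UMIs, at 4651 and 6031 CPM, against 68850 and 28390 CPM in all other cells. The part of such RNA from other cells in the results was not tested. Scrublet, a doublet caller, gave none of the 57 cells (0) a score of 0.2 or more.

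The sizes changed when cells of low or like depth were compared. Passing cells outside the gate with under 2174 UMIs held the 9 neutrophil markers at 642 and 587 CPM in replicates 1 and 2. The same cells held the 8 macrophage markers at 2132 and 2097 CPM. Against them the neutrophil-gate cells, at 4434 and 2171 CPM, were not lower in macrophage markers. When each neutrophil-gate cell was set against 20 other cells of like UMI total, 444 of 4538 genes tested passed, 189 higher and 255 lower. RETN-high cells and cells just outside the gate, which have similar UMI totals, could be among these other cells. Depth and cell type thus changed together, and their parts were not tested. Against 4 phagocytes of like total 470 of 1504 passed, 245 higher and 225 lower. Fewer genes were tested than in the main fits, so the counts are not directly comparable. Of the 925 and 771 main calls against all other cells and phagocytes, 901 and 585 were tested among cells of like depth. Of the 250 genes higher against all other cells, 160 were also higher among cells of like depth, and of the 210 against phagocytes 165 were. UMI-matched changes, called at like depth below, are given for many of the genes described. Of the genes called against phagocytes below, FFAR2, SYT2, APOA2, LIMK2, STAT4, SCGB3A2, TXN2 and PSMB6 were not tested at like depth.

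**Figure D2:**
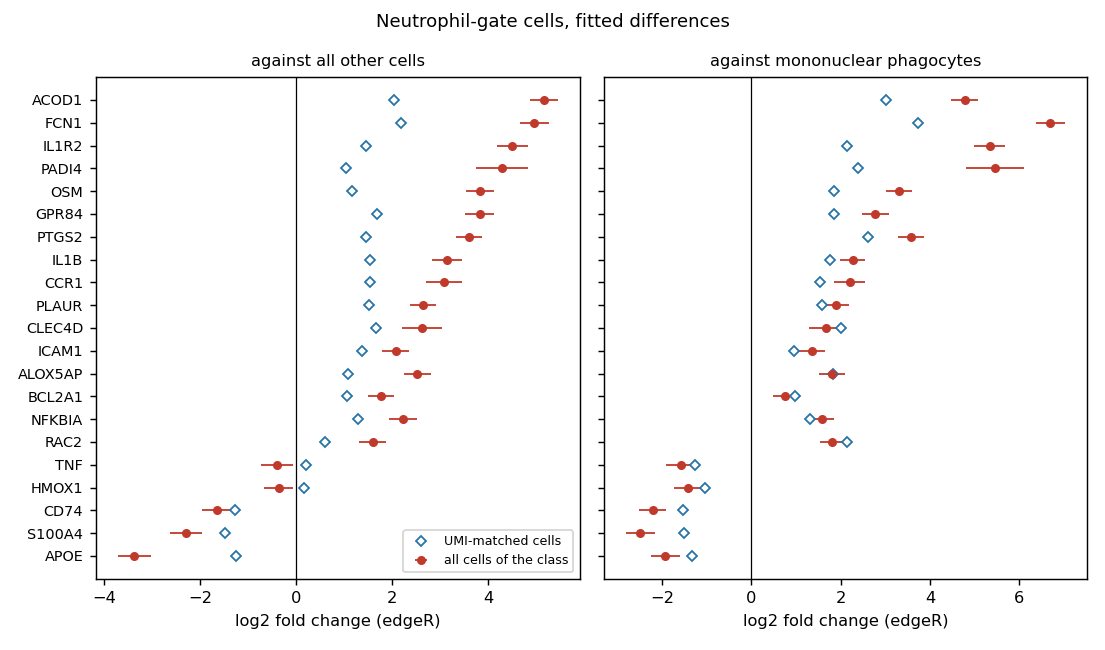
Fitted log2 fold change (x axis) of neutrophil-gate cells over all other cells (left) and over mononuclear phagocytes (right) for 21 genes; red points with bars are the fit on all cells of each class ± SE (4 summed libraries), blue open diamonds the fit on cells of like UMI total. The cytokine and receptor genes stay above 0 in both fits, and CD74, S100A4 and APOE below 0, whereas TNF and HMOX1 change side on the left.

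Receptors for chemoattractants were raised, with 4 of 5 members higher in both comparisons and none (0) lower. Their median log2 ratio of CPM, with sums under 3 UMIs set to 3, was 3.94 against all other cells and 2.76 against phagocytes, beside 1.87 and 1.20 over all genes tested. Genes with under 3 UMIs in the class stand at that floor, which lifts the overall medians. CXCR1, a receptor for interleukin 8-type chemokines in humans, gave 8 and 11 UMIs (218 and 221 CPM) in neutrophil-gate cells, against 3.40 and 1.63 CPM in phagocytes and 6.36 and 3.43 CPM in all other cells. Its log2 change was 6.12 ± 0.99 (SE) over phagocytes (edgeR adjusted p = 5.63e-08) and 5.03 ± 0.91 over all other cells (1.78e-06), and the classes did not overlap. Against other cells of like depth it was 1.26 and did not pass (edgeR adjusted p = 0.0793). LTB4R, the receptor for leukotriene B4, rose by 4.14 ± 0.86 over all other cells (2.28 at like depth), and PTAFR, the receptor for platelet-activating factor, by 3.07 ± 0.61 (1.64 at like depth). CCR1, a receptor for inflammatory CC chemokines, gave 381 and 784 CPM in neutrophil-gate cells, against 70.8 and 127 CPM in phagocytes. It rose by 2.20 ± 0.35 over phagocytes, and by 1.54 among cells of like depth.

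Other receptors stood out through the rule for large changes. GPR84, a receptor for medium-chain fatty acids, gave 979 and 1246 CPM in neutrophil-gate cells, against 98.2 and 157 CPM in phagocytes and 41.4 and 72.1 CPM in all other cells. It was seen in 62.5% and 63.6% of neutrophil-gate cells thinned to 1000 UMIs, and in 1.97% and 2.93% of T cells, which should lack it. FFAR2, a receptor for short-chain fatty acids, rested on 3 and 6 UMIs and rose by 7.02 ± 1.59 over phagocytes. P2RY2, a receptor for extracellular ATP and UTP, gave 2 and 17 UMIs, and rose by 4.02 ± 0.78 over all other cells, with a plain log2 ratio of CPM of 3.25 when replicate 2 was left out, and its 1.33 at like depth did not pass.

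IL1B, the gene of the inflammatory cytokine interleukin 1 beta, was the most abundant gene with a symbol, with 1006 UMIs in the 57 cells, counted once per molecule at its 3' end. It gave 12730 and 10820 CPM in neutrophil-gate cells of replicates 1 and 2, against 1894 and 1857 CPM in phagocytes and 916 and 947 CPM in all other cells. Both neutrophil-gate values lay above those of phagocytes, T cells and all other cells, and the log2 change was 2.27 ± 0.29 over phagocytes (edgeR adjusted p = 4.69e-13) and 3.15 ± 0.31 over all other cells. Among cells of like depth it was 1.76 and 1.53. Every one of the 57 cells had an IL1B UMI, from 1 to 60 with a median of 18. After thinning to 1000 UMIs it was seen in 100% and 97.0% of neutrophil-gate cells, in 68.5% and 67.4% of phagocytes and in 16.0% and 18.7% of T cells, whose median depths before thinning were 2959 and 3833 UMIs. No neutrophil-gate cell without IL1B (0) was left for the planned description of cells with and without it.

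IL1R2, the decoy receptor that binds interleukin 1 without signalling, differed between the animals. It gave 1686 and 563 CPM in neutrophil-gate cells of replicates 1 and 2, against 29.2 and 11.8 CPM in phagocytes and 54.0 and 16.4 CPM in all other cells. The change was 5.34 ± 0.34 over phagocytes (edgeR adjusted p = 2.13e-50), and 2.14 among cells of like depth. In all 3 classes the level was higher in replicate 1. IL1A, the gene of interleukin 1 alpha, rose by 1.15 ± 0.31 over phagocytes and by 2.24 ± 0.32 over all other cells (1.61 at like depth). IL1RN, the gene of the interleukin 1 receptor antagonist, gave 4 and 11 UMIs, and rose by 2.10 ± 0.65 over all other cells (1.49 at like depth, which did not pass), while its 0.85 ± 0.53 over phagocytes did not pass.

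Of the 9 cytokine and chemokine genes on the list, 5 were higher and none (0) lower than in all other cells, and 4 were higher and 2 lower than in phagocytes. The median ratio was 2.72 and 1.5 (log2, with the same floor). OSM, the gene of the interleukin 6-family cytokine oncostatin M, gave 1442 and 1045 CPM in neutrophil-gate cells, against 89.9 and 102.8 CPM in phagocytes and 59.6 and 62.3 CPM in all other cells. It rose by 3.30 ± 0.30 over phagocytes and by 1.86 among cells of like depth. TNF, the gene of tumour necrosis factor, went the other way against phagocytes, with 462 and 382 CPM in neutrophil-gate cells and 791 and 1175 CPM in phagocytes. The log2 change was -1.58 ± 0.33 (edgeR adjusted p = 6.02e-05). Against all other cells TNF did not pass (-0.39 ± 0.33). TNF was seen in 11 of the 57 cells, with up to 10 UMIs in a cell, whereas 39 had OSM. CCL15, a CC chemokine gene that in humans encodes a ligand of CCR1, was the second most abundant gene with a symbol, at 9194 and 9167 CPM in neutrophil-gate cells, against 6080 and 3655 CPM in phagocytes. It rose by 1.92 ± 0.30 over all other cells, and its 0.59 ± 0.28 over phagocytes did not pass, although among cells of like depth it did (1.12, edgeR adjusted p = 3.13e-06).

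**Figure D3:**
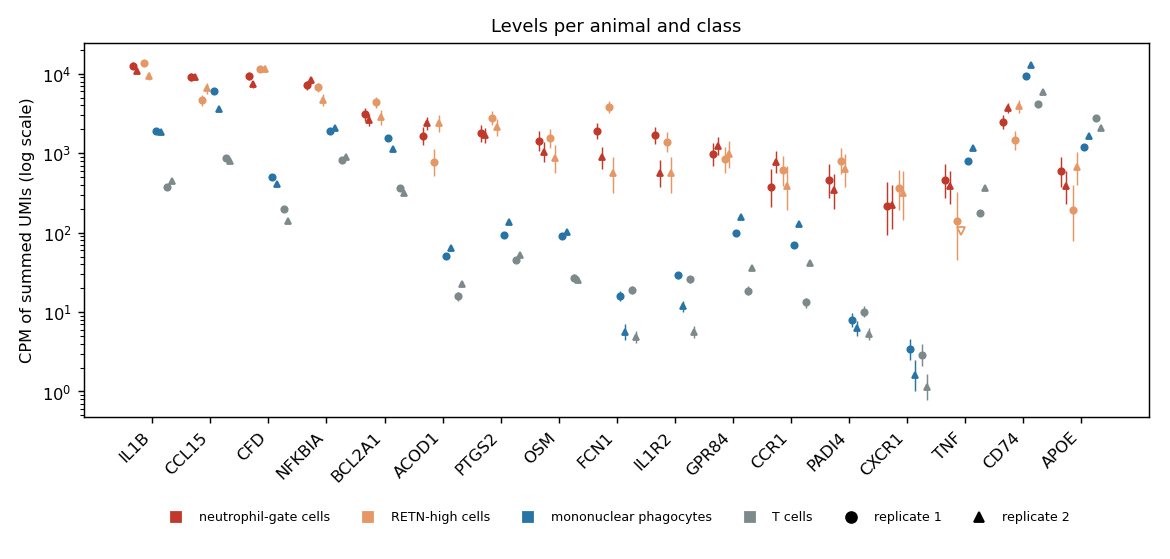
CPM of summed UMIs on a log scale for 17 genes in neutrophil-gate cells (red), RETN-high cells (orange), mononuclear phagocytes (blue) and T cells (grey) of replicate 1 (circles) and replicate 2 (triangles), with 95% Poisson intervals; the open downward triangle marks a class with 0 UMIs, drawn at its floor of 3 counts. Red and orange points lie close together for most genes, and both lie above blue and grey from IL1B to CXCR1 except for CCL15 in RETN-high cells of replicate 1.

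Genes of lipid mediators followed. PTGS2, the inducible cyclooxygenase that starts prostaglandin synthesis, gave 1795 and 1689 CPM in neutrophil-gate cells, against 92.5 and 136 CPM in phagocytes and 100.4 and 102 CPM in all other cells. It rose by 3.58 ± 0.29 over phagocytes (edgeR adjusted p = 1.71e-32), and by 2.61 among cells of like depth. ALOX5AP, which presents arachidonic acid to 5-lipoxygenase for leukotriene synthesis, rose by 1.80 ± 0.29 over phagocytes and by 1.82 at like depth. It was the only one of the 4 genes on the leukotriene and prostaglandin list that passed in either comparison.

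ACOD1, FCN1 and LBP came up under the rule for large changes, and 2 of 3 listed Fc, complement and pattern receptors, TLR4 and CLEC4D, were higher in both comparisons. ACOD1, the enzyme that makes itaconate in activated myeloid cells, gave 1659 and 2372 CPM in neutrophil-gate cells, against 50.5 and 63.3 CPM in phagocytes and 30.6 and 50.3 CPM in all other cells. Its change was 4.78 ± 0.30 over phagocytes (edgeR adjusted p = 1.2e-53), and 3.02 at like depth, and 45 of the 57 cells had an ACOD1 UMI. FCN1, a secreted lectin of human monocytes and neutrophils, gave 1931 and 885 CPM in neutrophil-gate cells, against 15.9 and 5.62 CPM in phagocytes and 49.96 and 16.7 CPM in all other cells. This was the largest fitted change over phagocytes among genes with over 100 UMIs in the class that are named here, at 6.70 ± 0.34, and was 3.73 at like depth. FCN1 was uneven from cell to cell, with no UMI in 30 of the 57 and up to 27 in a cell. LBP, which carries bacterial lipopolysaccharide to its receptors and is best known from liver, gave 10 and 23 UMIs and rose by 5.92 ± 0.70 over phagocytes (3.16 at like depth). TLR4, the lipopolysaccharide receptor, rose by 1.87 ± 0.52 over phagocytes, and CLEC4D, a receptor for fungal and mycobacterial glycolipids, by 1.67 ± 0.37. CD14, the co-receptor of TLR4, was measured at 1061 and 603 CPM in neutrophil-gate cells, against 560 and 566 CPM in phagocytes, and passed in neither comparison. CFD, the complement protease factor D, was seen in 52 of the 57 cells. It gave 9384 and 7438 CPM in neutrophil-gate cells, against 507 and 409 CPM in phagocytes, a change of 3.83 ± 0.29, and of 2.79 at like depth.

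Adhesion genes changed in part. ICAM1, a ligand of the neutrophil integrins, gave 707 and 1829 CPM in neutrophil-gate cells, against 245 and 512 CPM in phagocytes, and rose by 1.36 ± 0.29. The integrin genes ITGAM, ITGB2 and ITGAL passed in neither comparison.

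Of 16 genes listed for neutrophils of tumours, 6 were higher and 2 lower than in all other cells, and 5 of the 14 tested were higher and 3 lower than in phagocytes. The median ratio was 1.53 and 1.12, below that over all genes. PLAUR, the urokinase receptor, gave 1278 and 1327 CPM in neutrophil-gate cells, against 273 and 270 CPM in phagocytes, and rose by 1.90 ± 0.28. THBS1, an extracellular matrix glycoprotein that restrains vessel growth, rose by 3.13 ± 0.49 over phagocytes from 8 and 21 UMIs (1.72 at like depth), and ANXA1, a phospholipid-binding protein that dampens inflammation, by 1.43 ± 0.27. CSTB, a cysteine protease inhibitor, rose by 0.83 ± 0.27 over all other cells but did not pass over phagocytes (0.24 ± 0.27). DUSP1, a phosphatase of MAP kinases, rose by 0.81 ± 0.28 over phagocytes (edgeR adjusted p = 0.0454). The calls of CSTB and DUSP1 were lost without the filter on low counts and when neutrophil-gate cells had to lack CSF1R. HMOX1, the heme-degrading enzyme, fell by 1.42 ± 0.31 against phagocytes, at 408 and 925 CPM in neutrophil-gate cells against 1304 and 1462 CPM in phagocytes. NOS2 gave 0 UMIs and VEGFA, the vascular growth factor, 1 and 0 UMIs in the 57 cells.

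Of the primary granule genes, which neutrophil precursors transcribe in the marrow, MPO, ELANE, PRTN3 and BPI gave 0 UMIs in the 36765 and 49744 UMIs of the class. The floor of 3 counts is 81.6 and 60.3 CPM there. ELANE was at 8.79 and 11.2 CPM in all other cells, under these floors, so a difference was not detectable at this depth. None (0) of the 5 primary granule genes tested passed against all other cells in edgeR, where 0 were higher and 1 lower at an unadjusted p under 0.05, or in DESeq2 (0). SERPINB1, an inhibitor of granule proteases, was at 435 and 181 CPM in neutrophil-gate cells and 404 and 299 CPM in phagocytes and passed in neither comparison. CTSC, the protease that activates granule serine proteases, fell by 1.77 ± 0.39 against phagocytes, but its change of -0.58 at like depth did not pass. Of 8 secondary and tertiary granule genes 1 was higher and 3 lower than in all other cells, and 1 of the 6 tested was higher and 1 lower than in phagocytes. The 1 higher gene was PADI4, which is not a granule protein but the enzyme that citrullinates histones when neutrophils release chromatin, and none (0) of the other listed genes was called higher. PADI4 gave 17 UMIs in each animal (462 and 342 CPM), against 7.90 and 6.21 CPM in phagocytes, and rose by 5.45 ± 0.65 (edgeR adjusted p = 1.46e-14), and by 2.39 at like depth. The 3 lower genes were CHI3L1, a chitinase-like protein, HP, the hemoglobin-binding haptoglobin, and MMP9, the gelatinase of tertiary granules. MMP9 gave 109 and 141 CPM in neutrophil-gate cells, against 5.93 and 293 CPM in phagocytes and 44.3 and 510 CPM in all other cells. In replicate 1 it was thus higher and in replicate 2 lower than in both other classes, and among cells of like depth its change against all other cells was 0.90 and did not pass (edgeR adjusted p = 0.425). CHI3L1 and HP also changed sign at like depth, to 0.54 and 0.04, and did not pass there, and neither passed against all other cells in DESeq2.

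Subunits of the NADPH oxidase, the enzyme of the oxidative burst, moved apart. RAC2, the small GTPase that switches the enzyme on, gave 1931 and 965 CPM in neutrophil-gate cells, against 294 and 317 CPM in phagocytes, and rose by 1.81 ± 0.28. CYBB, the membrane catalytic subunit, gave 3 UMIs in each animal (81.6 and 60.3 CPM) in neutrophil-gate cells, against 286 and 315 CPM in phagocytes, and fell by 2.47 ± 0.53 (edgeR adjusted p = 1.02e-04). Its membrane partner CYBA was at 1931 and 1246 CPM in neutrophil-gate cells and 1893 and 1500 CPM in phagocytes and passed in neither comparison. The difference between CYBB and RAC2 was not tested.

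On the list of survival genes NFKBIA and BCL2A1 were the most widely seen of those described here. NFKBIA, the inhibitor that NF-kB itself induces, was seen in 56 of the 57 cells and gave 7154 and 8303 CPM, against 1891 and 2093 CPM in phagocytes. It rose by 1.58 ± 0.28 over phagocytes, and by 1.32 at like depth. BCL2A1, a survival protein of the BCL2 family typical of neutrophils, was seen in 54 cells and gave 3128 and 2654 CPM in neutrophil-gate cells, against 1546 and 1124 CPM in phagocytes. It rose by 1.77 ± 0.27 over all other cells (1.06 at like depth). Its 0.76 ± 0.27 over phagocytes did not pass, whereas 0.99 at like depth did (edgeR adjusted p = 2.67e-04). MCL1, on which neutrophil survival depends in mice, rose by 1.13 ± 0.35 over phagocytes from 18 and 22 UMIs, a call that was lost when neutrophil-gate cells had to lack CSF1R. MCL1's 1.05 ± 0.34 over all other cells was lost at like depth (0.33, edgeR adjusted p = 0.578). BCL2L1 and CFLAR, further survival genes, gave 0 and 2 UMIs in the 57 cells. Of the 5 genes on this list 3 were higher than in all other cells and 2 higher than in phagocytes.

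Interferon-induced genes varied between cells and animals. Of 7 listed genes, IFIT2 (1.53 ± 0.36) and IFIT3 (1.35 ± 0.36), inhibitors of viral translation, were higher than in all other cells, and none (0) passed against phagocytes in edgeR, where 2 were higher and 1 lower at an unadjusted p under 0.05, or in DESeq2 (0). In DESeq2 neither IFIT2 nor IFIT3 passed against all other cells (adjusted p = 0.0892 and 0.179), and IFIT3 did not pass at like depth (0.82, edgeR adjusted p = 0.0879). The plain log2 ratios of IFIT2 and IFIT3 over all other cells were 2.71 and 2.63 without replicate 1, and 0.94 and 0.56 without replicate 2. ISG15, a ubiquitin-like protein, gave 1931 and 523 CPM in neutrophil-gate cells of replicates 1 and 2, against 1060 and 413 CPM in phagocytes and 846 and 312 CPM in all other cells. It was higher in replicate 1 in all 3 classes and passed in neither comparison. The 7 genes together gave a UMI in 37 of the 57 cells, with a median of 1, and 5 or more in 16 cells.

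**Figure D4:**
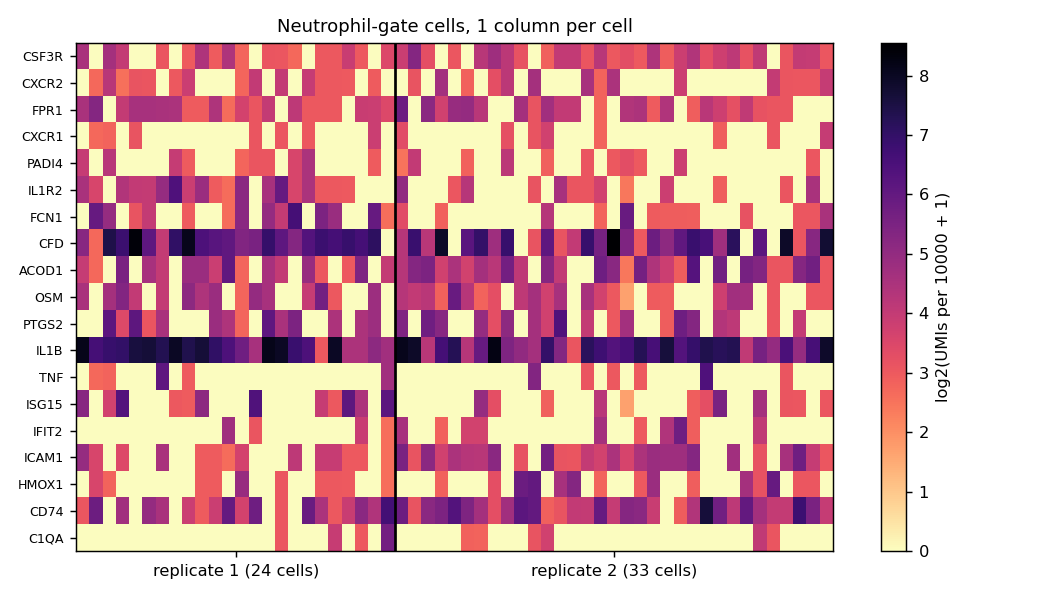
Heat map of 19 genes (rows) in the 57 neutrophil-gate cells (columns, replicate 1 left of the black line, replicate 2 right, ordered within each by summed gate genes); colour is log2(UMIs per 10000 + 1). IL1B is present in every column, CFD in 52, ACOD1 in 45 and OSM in 39, whereas TNF is in 11 and CXCR1 in 15.

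Energy metabolism genes were lower or did not pass. Of 6 oxidative phosphorylation genes 3 were lower than in all other cells and 4 lower than in phagocytes, with none (0) higher. COX5A, a subunit of cytochrome oxidase, gave 2 and 7 UMIs (54.4 and 141 CPM) in neutrophil-gate cells, against 430 and 361 CPM in phagocytes, and fell by 2.28 ± 0.46. ATP5F1B, the catalytic subunit of ATP synthase, fell by 1.90 ± 0.38, and NDUFA4, a small subunit of cytochrome oxidase, fell by 1.25 ± 0.36. At like depth these changes were -1.16, -0.87 and -0.51 and did not pass. The median share of UMIs in the 13 mitochondrial genes was 1.04% and 1.28% in neutrophil-gate cells, against 6.64% and 5.60% in phagocytes and 6.37% and 6.23% in all other cells. Of 11 glycolysis and hypoxia genes 1 was lower than in phagocytes, GAPDH (-1.02 ± 0.28), and at like depth it did not pass (-0.26).

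CD74, S100A4 and APOE, abundant in phagocytes, were lower in neutrophil-gate cells. CD74, the invariant chain of MHC class II, gave 2502 and 3699 CPM in neutrophil-gate cells, against 9339 and 12880 CPM in phagocytes, and fell by 2.21 ± 0.30 (edgeR adjusted p = 6.2e-11), with a change of -1.53 at like depth. S100A4, a calcium-binding protein of motile cells, gave 218 and 643 CPM in neutrophil-gate cells, against 2048 and 1808 CPM in phagocytes, and fell by 2.49 ± 0.33, with a change of -1.52 at like depth. Its plain log2 ratio of CPM was -1.49 without replicate 1 and -3.24 without replicate 2. APOE, the lipid carrier, gave 598 and 382 CPM in neutrophil-gate cells, against 1202 and 1649 CPM in phagocytes and 4300 and 2816 CPM in all other cells. It fell by 1.93 ± 0.32 against phagocytes and fell by 3.37 ± 0.35 against all other cells, with changes of -1.33 and -1.25 at like depth. Without replicate 1 its plain log2 ratio over phagocytes was -2.11 and without replicate 2 it was -1.01. C1QA, which helped to choose the phagocytes, was at 381 and 161 CPM in neutrophil-gate cells, and 17 of the 57 cells had a UMI of C1QA, C1QB or C1QC. VCAN, a proteoglycan of monocytes, gave 0 UMIs in neutrophil-gate cells and was at least 3.34-fold lower than in phagocytes, at a floor of 3 counts over the group. The 5 epithelial markers summed to 490 and 302 CPM in neutrophil-gate cells, against 285 and 74.9 CPM in phagocytes and 1341 and 661 CPM in all other cells. Among them SCGB3A2, a secretory airway protein, gave 8 and 4 UMIs (218 and 80.4 CPM) and was higher than in phagocytes, at 22.8 and 3.77 CPM (3.12 ± 0.89, edgeR adjusted p = 0.00843). Against all other cells it did not pass (-0.65 ± 0.50), whereas at like depth it was higher (2.38, edgeR adjusted p = 0.0113). The part of RNA from airway cells in the class was not tested. The sum of the 6 fibroblast markers was 190 and 161 CPM in neutrophil-gate cells, against 171 and 186 CPM in phagocytes and 2330 and 1163 CPM in all other cells.

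The rule for the largest changes also named genes outside the lists. APOA2, an apolipoprotein of liver, rested on 5 and 4 UMIs and rose by 5.43 ± 1.40 over phagocytes, and SYT2, a calcium sensor of vesicle release in neurons, on 5 and 3 UMIs with 6.69 ± 1.65. ANKRD22, an ankyrin-repeat protein, rested on 6 UMIs in each animal and rose by 6.29 ± 1.29 (2.53 at like depth), and LIMK2, a kinase that acts on the actin-severing protein cofilin, on 2 and 12 UMIs with 5.15 ± 1.07 (plain log2 ratio 4.26 without replicate 2). STAT4, which transmits interleukin 12 signals in T cells, rose by 4.44 ± 1.36 over phagocytes from 3 and 5 UMIs and did not pass against all other cells, except in DESeq2. LCP1, the leukocyte actin-bundling protein, rose by 0.92 ± 0.30 over phagocytes but did not pass in DESeq2 (adjusted p = 0.0899). The genes with the lowest fitted values had 0 UMIs in the class. Among them DYNC1I2, an intermediate chain of the motor dynein, was at least 5.91-fold lower than in phagocytes, TXN2, the mitochondrial thioredoxin, at least 5.77-fold, and PSMB6, a proteasome subunit, at least 3.91-fold. These bounds are at a floor of 3 counts.

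Features without a symbol held 51.9% of the UMIs of neutrophil-gate cells and 37.8% of those of all other cells. ENSHGLG00000038740 took 8.09% of the class's UMIs and gave 65360 and 92310 CPM, against 10300 and 12610 CPM in phagocytes. It rose by 2.40 ± 0.35, and by 2.82 at like depth. No gene name was given to it, since the identifiers are not in the reference table.

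**Figure D5:**
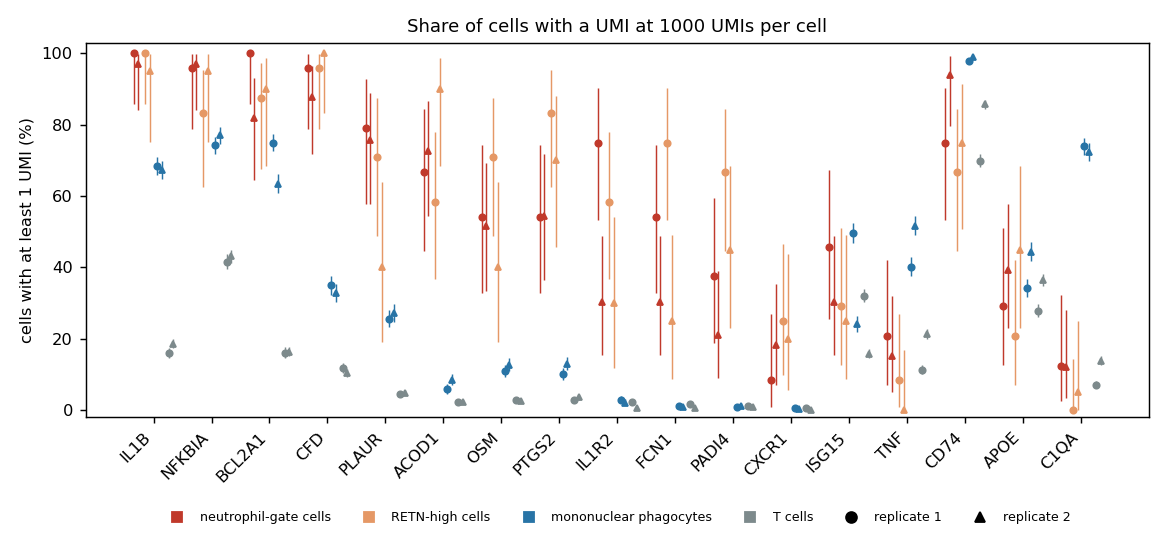
Percent of cells with at least 1 UMI after thinning to 1000 UMIs per cell for 17 genes in neutrophil-gate cells (red), RETN-high cells (orange), mononuclear phagocytes (blue) and T cells (grey) of replicates 1 (circles) and 2 (triangles), with exact binomial 95% intervals. ACOD1 is seen in 66.7% and 72.7% of neutrophil-gate cells, against 5.83% and 8.45% of phagocytes, and TNF in 20.8% and 15.2%, against 40.2% and 51.8%.

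The RETN-high cells, which met every limit but that on RETN (the gene of resistin, made by human neutrophils and monocytes), were close to the neutrophil-gate cells in depth, with medians of 1443 and 1353 UMIs. They made up 24 of 48 and 20 of 53 granulocyte-type cells in replicates 1 and 2 and both of the 2 in replicate 3. Of the 46 cells, 24 had exactly 1 RETN UMI, so many cells differ from the neutrophil-gate cells by 1 molecule. With 2 such cells in replicate 3 the planned test was not run, and values are given without a test. IL1B was at 12730 and 10820 CPM in neutrophil-gate cells and at 13800 and 9447 CPM in RETN-high cells, and CFD at 9384 and 7438 CPM in neutrophil-gate cells and at 11510 and 11640 CPM in RETN-high cells. PADI4 was at 462 and 342 CPM in neutrophil-gate cells and at 810 and 628 CPM in RETN-high cells.

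Of 933 genes with at least 20 UMIs over both classes, 45 differed by at least 2-fold the same way in both animals (4.82%), 40 of them higher (4.29%) and 5 lower (0.536%) in neutrophil-gate cells. TNF gave 17 and 19 UMIs in neutrophil-gate cells of replicates 1 and 2, against 5 and 0 UMIs in RETN-high cells, from class totals of 36765 and 49744 UMIs against 35797 and 28685 UMIs. These TNF UMIs came from 5 of 24 and 6 of 33 neutrophil-gate cells, with up to 9 and 10 in a cell. In RETN-high cells they came from 4 of 24 and 0 of 20. RIPK2, the kinase that acts below NOD receptors, gave 9 and 16 UMIs against 0 and 1 in RETN-high cells. IL23A, a subunit of interleukin 23, gave 6 and 13 UMIs against 2 and 1, and NFE2L2, the transcription factor of the oxidative stress response, 16 and 36 UMIs against 6 and 7. These genes were among the 40 that were higher, and were picked after their values had been seen.

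The cells of the 2 animals also differed from each other. Of 598 genes with at least 20 UMIs in the class, 75 had 95% Poisson intervals that did not overlap between replicates 1 and 2 (12.5%). SPP1, the gene of the secreted matrix protein osteopontin, was at 81.6 CPM in replicate 1 and 2111 CPM in replicate 2. Its level in all other cells was 45.4 CPM in replicate 1 and 6230 CPM in replicate 2, so the animals differed in the same direction outside the class. IDO1, which breaks down tryptophan, gave 22 and 4 UMIs (598 and 80.4 CPM) in replicates 1 and 2, against 104 and 91.7 CPM in all other cells. PLEK, a substrate of protein kinase C in blood cells, gave 10 and 124 UMIs. With 1 animal on each side, these differences have no replicate check.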

How the data were processed

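Single-cell RNA of 3 naked mole-rat lung tumours was deposited by the authors as raw UMI counts per gene and barcode, not normalized. Cell Ranger 7.1.0 is named per the file headers and 8.0.0 per the submitters' processing notes; the genome build is not given in the sources used here. Passing cells had at least 1000 UMIs, 500 genes and under 20% of UMIs in 13 mitochondrial genes. No doublets were removed, since Scrublet (scanpy 1.11.5) marked 0 cells with its automatic threshold; 464 cells scoring at least 0.2 were left out as an alternative. Libraries held 9500, 10000 and 10000 barcodes with 76093932, 86575320 and 91949365 UMIs.

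UMI counts were summed per animal and class and tested in R 4.3.3 by the quasi-likelihood method of edgeR 4.0.16 after filterByExpr and TMM scaling, with Benjamini-Hochberg adjustment. The animal was a block because both classes share it, and gate genes were not tested. RETN-high cells are among all other cells. The design named 6 sums; replicate 3 had no neutrophil-gate cells (0), so 4 were fitted. Genes of the lists, and by rule the 15 highest and 10 lowest fitted changes that passed and went the same way in both animals with at least 20 CPM, could be named. The gate, members and lists were chosen with earlier results of these data known. DESeq2 1.42.0 was an alternative. The tests were also run on simulated counts with known changes. No cells were chosen on gate genes there, so that run does not cover the calibration of the p-values given here. Some results are not reported here.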

Additional observations from a re-analysis of the deposited data

How the results depend on the processing

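The mean share of neutrophil-gate cells, 0.221% of passing cells over 3 animals, fell to 0.0147% with at least 2000 UMIs per cell, 0.0235% with 40 gate UMIs per 10000, and 0.00983% with the common minimum of 2174 UMIs, an alternative chosen after seeing the data; leaving out 1 animal gave 0.149 to 0.332%. RETN-high cells were 43.9% of granulocyte-type cells in replicates 1 and 2, and 16.7% and 53.6% under the first and the second of these limits; leaving out 1 animal gave 37.7 to 50%. The thinned share with IL1B, 98.5%, ranged from 97.0 to 100% when 1 animal was left out.

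Of the 925 calls against all other cells and 771 against phagocytes, DESeq2 made 437 (229 higher) and 436 (211 higher), of which 425 and 423 are shared. UMI-matched cells gave 444 and 470 calls, from 4538 and 1504 genes tested. A looser gate of 10 per 10000 and 2 UMIs, also chosen after seeing the data, gave 1374 and 1236. Without the animal as replicate block 966 and 796 genes passed, of which 797 and 679 are shared; against phagocytes MCL1, LCP1, DUSP1, GAPDH and NDUFA4 then missed the threshold. DESeq2 gave no adjusted p to 11196 and 7545 genes. The cause of these differences was not tested.

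These log2 changes turned direction: against all other cells, at like depth, TNF 0.20, MMP9 0.90, CHI3L1 0.54, HP 0.0393, HMOX1 0.17 and SCGB3A2 2.38, in DESeq2 SCGB3A2 0.0729, and when 1 animal was left out, MMP9 -1.86 to 1.30 and CHI3L1 -1.43 to 0.137; against phagocytes, MMP9 1.27 (DESeq2), 1.18 (like depth) and 0.28 (mitochondrial limit of 10%), and ISG15 -0.21 (CSF1R at 0) and -0.0618 (mitochondrial limit of 10%). UMI matching ended 21 and DESeq2 10 calls of the genes named here without a turn of direction. The calls of MMP9, CHI3L1 and HP against all other cells, which turned direction at like depth, ended there as well. Fits with at least 2000 UMIs or 40 per 10000 were not run, as too few cells were left, and without replicate 1 or 2 only 1 animal is left, so only ratios were computed. Depth limits all values: 1 UMI in the class is worth 27.2 CPM in replicate 1.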
